A study of Mus musculus with 16 samples.

Results

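Growth hormone, prolactin, the glycoprotein hormone subunits and the transcription factors of the cells that make them are genes of the anterior pituitary, a gland that hangs below the brain. Their calls were followed here, array by array, in mouse cerebellum and in what remained of the brain without it. The genes were Gh, Prl, Cga, Tshb, Lhb, Fshb, Pou1f1, Pitx1 and Tbx19. A probe set is a group of short probes read together, and some read several transcripts. Every probe set annotated with a listed gene as its single gene symbol was taken. This gave 13 of the 45101 probe sets and 8 of the 9 genes; Pou1f1, the factor of the growth hormone, prolactin and thyrotropin cells, is named only.

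Affymetrix arrays read RNA of SINE KO and WT mice of both sexes, in 8 groups of 2 arrays. SINE KO homozygotes carry a 4-bp deletion, made with CRISPR/Cas9 in C57BL/6J embryos and kept as 1 mutant line, in the SINE exon of a brain isoform of Ppargc1a; the WT mice were age-matched littermates, and no age is given in the sources used here. Calls of whole probe sets cannot show a deletion of this size, so they do not check the genotype labels. The cerebellum groups were KO female, KO male, WT female and WT male, and the rest-of-brain groups, whole brain minus the cerebellum, were the same 4. Brain stem remnants were removed by hand at dissection, the pituitary is not mentioned, and it is not stated whether same-numbered arrays of the 2 brain parts share an animal.

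The anterior pituitary releases its hormones into the blood under the control of releasing factors that reach it from the hypothalamus. Somatotrophs make growth hormone, lactotrophs prolactin, corticotrophs the Pomc peptides, and thyrotrophs and gonadotrophs make glycoprotein hormones in which a common alpha subunit, Cga, is joined to a hormone-specific beta subunit, Tshb, Lhb or Fshb. POU1F1 activates Gh, Prl and Tshb, PITX1 acts in most cell types of the gland, and TBX19 acts with it in the corticotroph lineage to activate Pomc. Neurons of the brain are not the usual source of these hormones, although transcripts of several of them have been described in brain tissue.

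The promoters of Prl, Tshb and Cga are shown because Tshb had the largest difference between the brain parts among these genes, Cga is its partner subunit, and Prl was detected on arrays that also had Gh. They come from the RefSeq promoter table of build GRCm38.p6, which holds 7 of the 9 genes, and each window runs from 250 bases before to 50 bases after an annotated start, read 5′ to 3′ along the gene; the start used for Tshb lies inside the gene's annotated span. The windows are chr13:27057320-27057619 on the plus strand for Prl, chr3:102782665-102782964 on the minus strand for Tshb and chr4:34893529-34893828 on the plus strand for Cga. Capitals mark matches to ATGNATA or its reverse complement TATNCAT, a core of POU1F1 sites in the Prl promoter, and to TATAAA, the TATA box, on the strand shown.
Prl: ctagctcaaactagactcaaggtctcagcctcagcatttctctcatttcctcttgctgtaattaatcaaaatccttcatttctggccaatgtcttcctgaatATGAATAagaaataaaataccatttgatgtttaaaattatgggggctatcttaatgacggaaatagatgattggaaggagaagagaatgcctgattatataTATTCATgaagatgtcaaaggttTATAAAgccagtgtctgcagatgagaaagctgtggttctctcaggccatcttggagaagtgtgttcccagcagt
Tshb: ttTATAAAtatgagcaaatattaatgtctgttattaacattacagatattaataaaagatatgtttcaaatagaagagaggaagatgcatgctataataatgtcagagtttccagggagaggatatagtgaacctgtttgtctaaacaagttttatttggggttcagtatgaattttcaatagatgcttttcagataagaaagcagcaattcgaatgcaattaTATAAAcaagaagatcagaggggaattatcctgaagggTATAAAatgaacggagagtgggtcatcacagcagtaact
Cga: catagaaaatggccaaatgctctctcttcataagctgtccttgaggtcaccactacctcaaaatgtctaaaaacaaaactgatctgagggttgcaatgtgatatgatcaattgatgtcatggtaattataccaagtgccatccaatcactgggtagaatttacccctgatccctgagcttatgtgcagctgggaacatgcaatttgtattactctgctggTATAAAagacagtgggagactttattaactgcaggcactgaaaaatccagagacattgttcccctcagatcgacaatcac
The Prl window holds ATGNATA at bases 103 to 109, TATNCAT at bases 204 to 210 and TATAAA at bases 227 to 232, counted from the window's first base. Tshb has TATAAA at bases 3 to 8, 224 to 229 and 262 to 267, and Cga has it at bases 221 to 226. Over all 32851 promoters of the table, 8.84% hold the first motif on either strand and 8.32% hold TATAAA. The core bound by PITX1, searched as TAATCC and its reverse complement GGATTA, is in 7.06% of promoters and in none of the 8 windows of the 7 genes. A match is a run of letters and was not tested as a binding site.

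The deposited values took only 5 distinct numbers, read here as levels: 2 for detected, 1 for marginal, 0 for not detected, and -1 and -2, whose meaning is not settled and which were counted as not detected. No source states this reading; it rests on genes that every cell uses, Actb and Gapdh, of which 8 of 8 probe sets were detected on every array. A call does not give an amount, and in bulk tissue fewer cells of a type and less RNA per cell cannot be told apart. The arrays detected 25517 to 28155 probe sets each. Of 40 probe sets of cerebellum markers, 36 to 39 were detected on 7 cerebellum arrays and 20 to 27 on 7 rest-of-brain arrays. Of 21 probe sets of forebrain markers, 5 to 9 were detected on 7 cerebellum arrays and 18 to 19 on the rest-of-brain arrays. The remaining 2 arrays stood apart from the rest in these markers. WT female cerebellum replicate 2 had 26 cerebellum and 12 forebrain probe sets, and KO female rest-of-brain replicate 1 had 32 cerebellum probe sets.

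Pituitary transcripts were detected seldom and unevenly. Of the 208 calls of the 13 probe sets, 43 were detected (20.7%), against 59.7% of the calls of all probe sets. None of the 13 was detected on every array, 4 were detected on none (30.8%, against 27.0% of all probe sets) and 9 on some arrays (69.2%, against 25.0%). The cerebellum arrays had 1 to 6 of the 13 detected, with a mean of 3.13 ± 2.10 (SD, n = 8), and the rest-of-brain arrays 0 to 9, with a mean of 2.25 ± 3.28 (SD, n = 8). The ranges overlapped: at least 1 probe set was detected on all 8 cerebellum arrays and on 4 of the 8 rest-of-brain arrays.

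**Figure D1:**
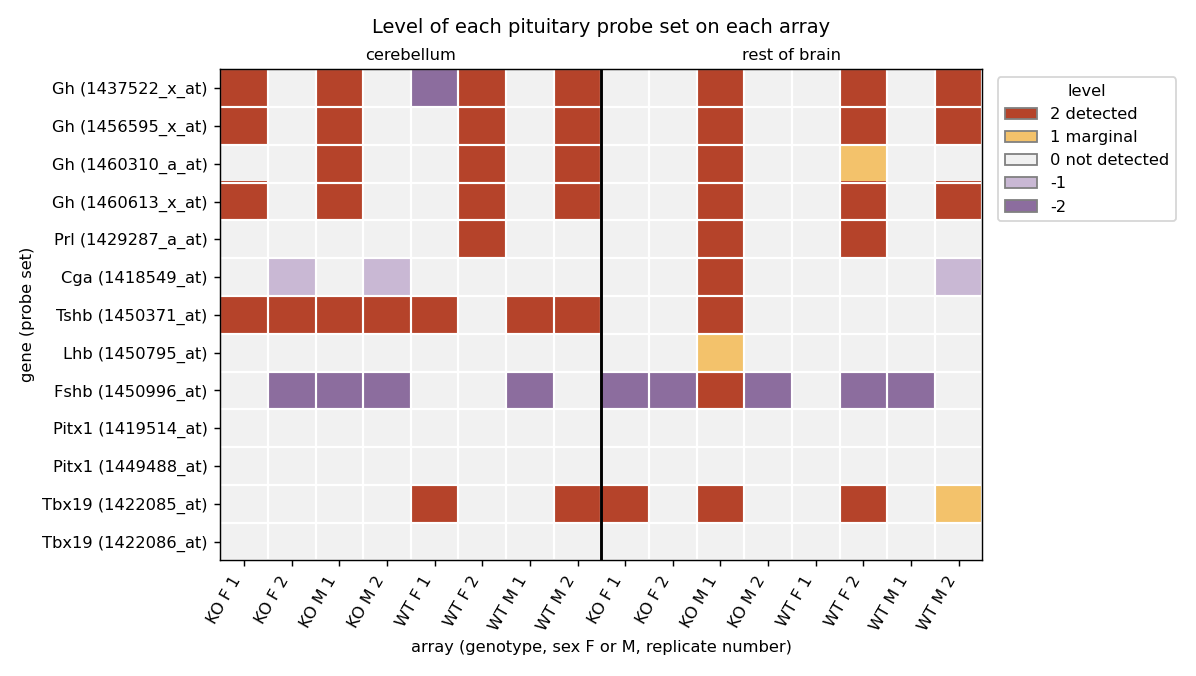
Level of each of the 13 probe sets (rows) on each of the 16 arrays (columns; cerebellum left, rest of brain right, KO before WT in each), with dark red for detected. Tshb fills 7 of 8 cerebellum columns and 1 rest-of-brain column, the 3 Gh rows with the suffix _x_at match on all 16 arrays, and KO male rest-of-brain replicate 1 has 9 of 13 rows detected.

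Growth hormone was detected on 7 of 16 arrays. Gh (chr11:106300261-106303703, GRCm38.p6) is read by 4 probe sets. Those with the suffix _x_at (1437522_x_at, 1456595_x_at and 1460613_x_at) may also read similar sequences of other genes, and the one with _a_at (1460310_a_at) reads several transcripts of 1 gene. The 3 _x_at probe sets agreed on detection on all 16 arrays and were detected on 7; the other 9 arrays were at level 0, but for level -2 of 1437522_x_at on cerebellum WT female 1. In the cerebellum the arrays with the _x_at probe sets detected were KO female replicate 1, KO male replicate 1, WT female replicate 2 and WT male replicate 2. In the rest of the brain they were KO male replicate 1, WT female replicate 2 and WT male replicate 2. The _a_at probe set was detected on 4 of these 7 arrays (cerebellum KO male 1, WT female 2 and WT male 2; rest of brain KO male 1), was marginal on rest-of-brain WT female 2, and was at level 0 on the other 11. On 9 arrays no Gh probe set was detected.

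No difference in the Gh calls by brain part, genotype or sex passed the test, and within nearly every group the 2 arrays differed. Each _x_at probe set was detected on 4 cerebellum and 3 rest-of-brain arrays, on 3 KO and 4 WT arrays, and on 3 female and 4 male arrays, of 8 each (Fisher's exact test, two-sided, p = 1 and adjusted p = 1 in all 3 comparisons). The _a_at probe set was detected on 3 cerebellum arrays and 1 rest-of-brain array (exact p = 0.569), on 2 KO and 2 WT arrays (exact p = 1), and on 1 female and 3 male arrays (exact p = 0.569). In 7 of the 8 groups exactly 1 of the 2 arrays had the _x_at probe sets detected. Such a split in 7 or more groups was seen in 59 of the 45101 probe sets (0.131%), and 3 of the 13 pituitary probe sets, the Gh _x_at ones, were among them. These 3 may read the same transcript and are not independent, and the limit of 7 groups equals their own value. Only the 11269 probe sets detected on part of the arrays can split at all.

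Between the brain parts, the calls of the 3 Gh _x_at probe sets mostly matched by replicate number. Arrays of the same sex, genotype and number agreed in 7 of 8 pairs, being detected on both in 3, on neither in 4 and on the cerebellum array alone in 1, KO female 1. Arrays of the same sex and genotype but the other number agreed in 1 of 8. The Gh _a_at probe set agreed in 6 of 8 same-numbered pairs and in 4 of 8 of the other number. Among the 5090 probe sets detected on 4 to 12 arrays, 112 (2.2%) agreed in 7 or more same-numbered pairs, and 3 of the 6 pituitary probe sets in that range did. With at most 1 agreement at the other number as well there were 11 probe sets (0.216%), again with these 3 among them. Separately, 97 (1.91%) agreed in 7 or more pairs of the other number, with 0 of the 6. The limit of at most 1 adds nothing for the 3 Gh _x_at probe sets. Where exactly 1 array per group is detected in both brain parts, agreement at the same number excludes agreement at the other. This held for WT female, WT male and KO male, on which the match rests. The limits of 7 and 1 equal the 3 probe sets' own values, and the 3 may read the same transcript. The shares therefore do not measure how unusual the match is. Over the 11269 probe sets detected on part of the arrays, replicate differences hardly correlated across brain parts (r of -0.018 to 0.043). The numbers were therefore not taken to pair the arrays.

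Prolactin was found only where growth hormone was. Prl (chr13:27057570-27065204), read by 1429287_a_at, was detected on 1 cerebellum array, WT female 2, and on 2 rest-of-brain arrays, KO male 1 and WT female 2. The 13 other arrays were at level 0, and the 3 with Prl were all among the 7 with Gh. The call was present on 1 KO and 2 WT arrays and on 2 female arrays and 1 male array (exact p = 1 for each comparison, brain part included).

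**Figure D2:**
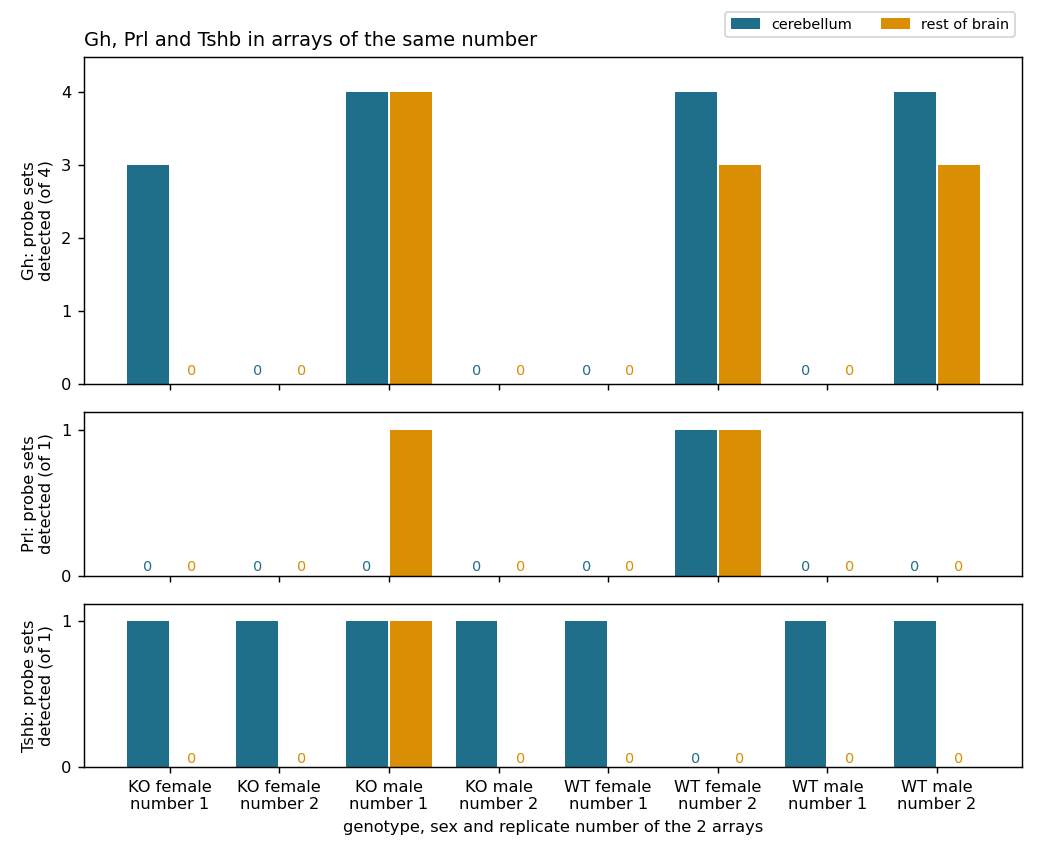
Number of probe sets detected for Gh (of 4), Prl (of 1) and Tshb (of 1) on the cerebellum array (left bar) and the rest-of-brain array (right bar) of each genotype, sex and replicate number; a 0 marks no detection. Gh was present on both or on neither array in 7 of 8 pairs, and Tshb on the cerebellum array alone in 6 of 8.

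Thyrotropin beta had another pattern, with most of its detections in the cerebellum. Tshb (chr3:102777398-102789082), the subunit specific to thyrotropin, is read by 1450371_at. It was at level 2 on KO female 1 and 2, KO male 1 and 2, WT female 1 and WT male 1 and 2 of the cerebellum, and at level 0 on WT female 2. In the rest of the brain it was at level 2 on KO male 1 and at level 0 on the 7 other arrays. The count was thus 7 of 8 cerebellum arrays, against 1 of 8 in the rest of the brain. Fisher's exact test, two-sided, gave p = 0.0101, with an adjusted p of 0.590 over all 45101 probe sets and 0.0507 over the 3873 whose number of detected arrays (5 to 11) allows a p under 0.05, so the difference did not pass in either run.

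Of the pituitary probe sets Tshb alone reached an unadjusted p under 0.05 between the brain parts. An unadjusted p under 0.05 was reached by 1247 of 45101 probe sets (2.76%) and by 1 of the 13, Tshb. After adjustment over all probe sets 0 (0%) were called, and 0 of the 13, in a run that fell just short of the complete switches it needs to call any. In the smaller run 662 of 3873 (17.1%) were called, and 0 of the 5 pituitary probe sets in it. A surplus of 6 or more arrays in the cerebellum was found for 279 of 45101 probe sets (0.619%) and for 1 of the 13.

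Tshb was missing from 1 cerebellum array and present on 1 rest-of-brain array. The cerebellum array without Tshb, WT female 2, was the one with 26 of 40 cerebellum and 12 of 21 forebrain probe sets, and the rest-of-brain array with Tshb, KO male 1, had ordinary brain part markers (24 cerebellum and 18 forebrain probe sets) and the most pituitary probe sets, Tshb included. Without WT female cerebellum replicate 2, Tshb was detected on 7 of 7 cerebellum and 1 of 8 rest-of-brain arrays (exact p = 0.0014, adjusted p = 0.110). Without KO male rest-of-brain replicate 1 the counts were 7 of 8 and 0 of 7 (exact p = 0.0014, adjusted p = 0.147). Both arrays go against the Tshb pattern, so a lower p was fixed in advance by leaving either out. With any other single array left out, Fisher's exact p stayed at 0.0101, with an adjusted p of 0.512 to 0.552. Without WT female cerebellum 2 and KO female rest-of-brain 1, a choice made after the data were seen, the adjusted p of Fisher's exact test was 0.328 over all probe sets and 0.0232 over 3196, where 642 were called and Tshb was 1 of them. Within KO arrays alone Tshb was detected on 4 of 4 cerebellum and 1 of 4 rest-of-brain arrays, and within WT arrays alone on 3 of 4 and 0 of 4 (exact p = 0.143 each, where the smallest possible is 0.0286); within females it was on 3 of 4 and 0 of 4, and within males on 4 of 4 and 1 of 4, with the same exact p. By genotype it was detected on 5 KO and 3 WT arrays, and by sex on 3 female and 5 male arrays (exact p = 0.619 each).

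The partner subunit and the receptor did not share the Tshb pattern. Cga (chr4:34893779-34907374; 1418549_at) was detected on 0 of 8 cerebellum arrays, where it was at level 0 on 6 and at level -1 on KO female 2 and KO male 2. In the rest of the brain it was detected on KO male 1 alone, with level -1 on WT male 2 and level 0 on the other 6. The 3 probe sets of Tshr, the thyrotropin receptor, chosen after its values were seen, were detected on no array. With the calls as read, Cga was not detected on any of the 7 cerebellum arrays with Tshb; on 2 of these 7 it was at the unsettled level -1.

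**Figure D3:**
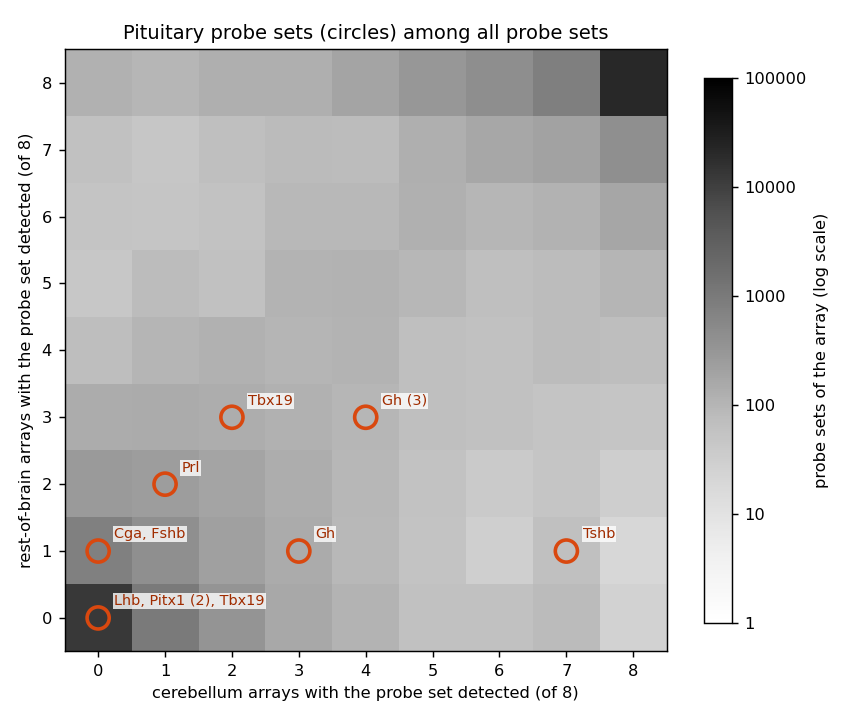
Number of cerebellum arrays (horizontal, 0 to 8) and of rest-of-brain arrays (vertical, 0 to 8) with a probe set detected; grey shading is the number of all 45101 probe sets at each position on a log scale, and circles are the 13 pituitary probe sets, with the number of probe sets in brackets where over 1. Tshb at 7 and 1 lies far from the diagonal, and the other 12 lie within 2 arrays of it.

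Gonadotropin subunits were nearly absent. Lhb (chr7:45417608-45421855; 1450795_at), of luteinizing hormone, was detected on no array; it was marginal on rest-of-brain KO male 1 and at level 0 on the 15 others. Fshb (chr2:107055986-107059651; 1450996_at), of follicle-stimulating hormone, was detected on rest-of-brain KO male 1 alone. It also had most of the unsettled calls: level -2 on 4 cerebellum arrays (KO female 2, KO male 1 and 2, WT male 1) and 5 rest-of-brain arrays (KO female 1 and 2, KO male 2, WT female 2, WT male 1), and level 0 on the other 6. Counted as detected, these would place Fshb on 7 KO arrays and 3 WT arrays (exact p = 0.119, adjusted p = 1). For Cga, Lhb and Fshb exact p = 1 in every comparison with the calls as read.

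Of the transcription factors, Tbx19 alone was detected. Tbx19 (chr1:165137834-165160773) is read by 1422085_at and 1422086_at, and the second was at level 0 on all arrays. The first was at level 2 on cerebellum WT female 1 and WT male 2 and on rest-of-brain KO female 1, KO male 1 and WT female 2, and was marginal on rest-of-brain WT male 2. That is 2 cerebellum and 3 rest-of-brain arrays, 2 KO and 3 WT arrays, and 3 female and 2 male arrays (exact p = 1 each). Same-numbered arrays agreed in 3 of 8 pairs and arrays of the other number in 5 of 8. Pomc, a target of TBX19 chosen after its values were seen, was detected by 1433800_a_at on 4 cerebellum and 2 rest-of-brain arrays (exact p = 0.608, adjusted p = 1) and by 1455858_x_at on 1 of each, WT female cerebellum 2 and KO male rest of brain 1 (exact p = 1). Pitx1 (chr13:55825044-55836190) was at level 0 on all 16 arrays with both its probe sets, 1419514_at and 1449488_at.

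One array held most of the pituitary set. On KO male rest-of-brain replicate 1, 9 of the 13 probe sets and 6 of the 8 genes were detected: Gh with all 4 probe sets, Prl, Cga, Tshb, Fshb and Tbx19. The other 7 rest-of-brain arrays had 0 to 5 probe sets, and its replicate, KO male 2, had 0. This array detected 27175 probe sets in all, within the range of the others. Cga and Fshb were detected here and on no other array, which was so for 70 of the 45101 probe sets (0.155%) and 2 of the 13; the number of probe sets peculiar to 1 array ranged from 67 to 189 over the 16 arrays. Among the 70 were also Ghrhr, the receptor for growth hormone-releasing hormone, Six6, a homeobox factor of the pituitary and eye, and both probe sets of Epcam, an epithelial adhesion molecule, all named after their values were seen. Others of the 70, such as Crisp3, Galntl5, Sprr1a and Trat1, are on none of the lists used here. Of the other pituitary genes listed, Hesx1, Lhx3, Lhx4, Nr5a1, Ghsr and Avpr1b, also named after their values were seen, were detected on no array. Of 36 probe sets of other pituitary genes, 18 were detected on this array, against 11 to 14 on the other rest-of-brain arrays and 8 to 17 on the cerebellum arrays, with 17 on WT female cerebellum 2. Whether pituitary tissue was present in this sample was not tested.

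Among the other pituitary genes no probe set passed the test between the brain parts. Of the 36 probe sets (22 genes), 7 were detected on all arrays, 14 on none and 15 on some. Detection was on more cerebellum arrays for 5 and on fewer for 9. The run over all 45101 probe sets called 0, so none of the 36 could pass there. Only 4 of the 36 were in the smaller run, where 17.1% of the 3873 were called, and 0 of these 4 passed. The median difference was 0 percentage points, as over all probe sets. For the genes named next, the probe set with the largest difference is given first. Isl1 (1450723_at), a LIM homeobox factor, was detected on 0 cerebellum and 5 rest-of-brain arrays. Fisher's exact test gave p = 0.0256, with an adjusted p of 1 over all probe sets and 0.0944 in the smaller run. The other Isl1 probe set, 1422720_at, was on 0 and 1. Neurod4 (1436694_s_at), a basic helix-loop-helix factor of somatotroph development, was detected on 2 and 6 (exact p = 0.132, adjusted p = 1). Its other probe sets, 1418054_at and 1418055_at, were detected on no array. Dlk1 was on 5 and 8 by 1442724_at (exact p = 0.2, adjusted p = 1) and on 7 and 8 by 1449939_s_at. Pax7, a factor of melanotrophs, was on 5 and 2 by 1452510_at (exact p = 0.315, adjusted p = 1) and on 1 and 0 by 1444596_at. These genes are also transcribed in neurons or their precursors.

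Peptides of the hypothalamus, by contrast, were detected more in the rest of the brain, where the hypothalamus lies, but several were also common in the cerebellum. Of 8 probe sets, 2 to 5 were detected on cerebellum arrays and 7 to 8 on rest-of-brain arrays, without overlap. How often other sets of probe sets separate in this way was not tested. Only 4 of the 8 were in the run over 3873 probe sets, and 3 of these 4 were called lower in the cerebellum. Among all 3873, 447 were called lower. Avp, vasopressin, was detected on 0 cerebellum and 8 rest-of-brain arrays (Fisher's exact p = 0.000155, adjusted p = 0.0501 over all probe sets and 0.0043 in the smaller run). Tac2, neurokinin B, was detected on 1 and 8 (adjusted p = 0.161 and 0.0138), Cartpt on 2 and 8 (adjusted p = 0.476 and 0.0409), and Oxt, oxytocin, on 0 and 5 (adjusted p = 1 and 0.0944), all by Fisher's exact test. Avp and Oxt were detected on 0 of the 8 cerebellum arrays. Their absence from those with Gh or Tshb follows from this alone and says nothing of the Gh and Tshb calls. The rest of the list, named after the values were seen, was also detected in the cerebellum. Npy was on 8 cerebellum and 8 rest-of-brain arrays, Pmch on 7 and 8, Hcrt on 4 and 8, and Gal on 4 and 8. Of the releasing factors, Trh, which drives thyrotropin, was detected on 2 rest-of-brain arrays, Crh on 7 cerebellum and 8 rest-of-brain arrays, Sst on all 16, and Ghrh on none.

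**Figure D4:**
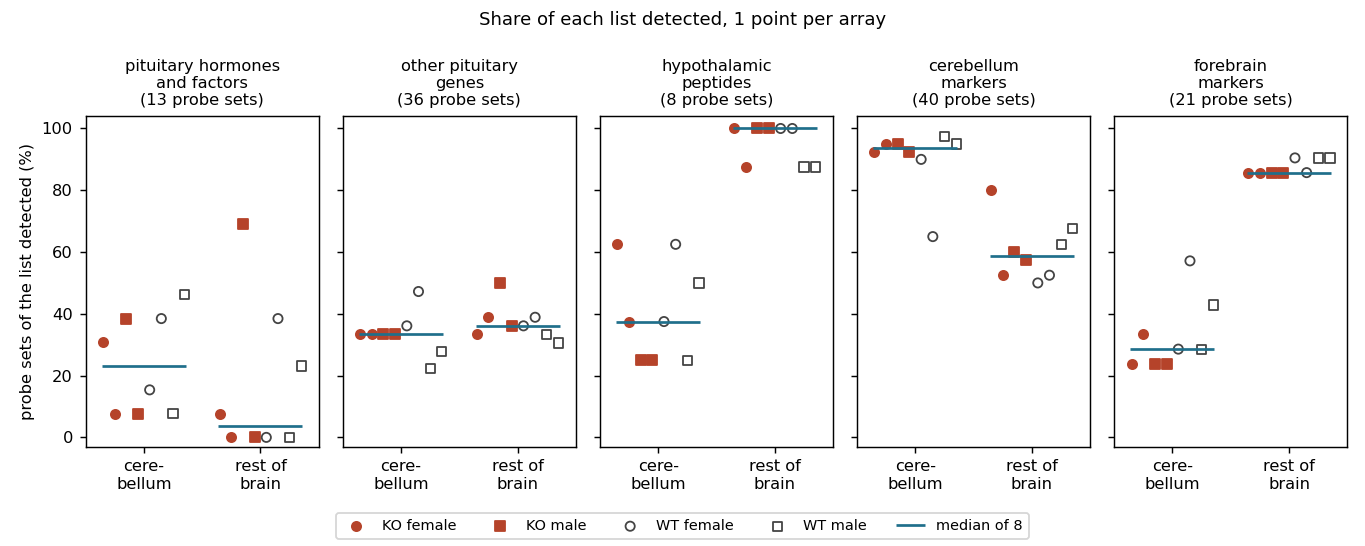
Percent of each list's probe sets detected, 1 point per array (filled red KO, open grey WT; circles female, squares male; line, median of 8), cerebellum left and rest of brain right. Hypothalamic peptides and forebrain markers separate the brain parts, as do cerebellum markers but for 2 arrays, while the 13 pituitary probe sets overlap widely, with KO male rest-of-brain replicate 1 at 69.2%.

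A last list held receptors for the hormones and Igf1, a growth factor. Ghr, the growth hormone receptor, was detected on all 16 arrays by 1417962_s_at and on 5 cerebellum and 7 rest-of-brain arrays by 1451501_a_at (exact p = 0.569), and on none by 1451871_a_at. Igf1, which growth hormone induces in liver, was detected on all 16 by 1434413_at and 1437401_at, on 2 cerebellum and 3 rest-of-brain arrays by 1419519_at, and on 2 cerebellum arrays and 1 rest-of-brain array by 1452014_a_at (exact p = 1 each). Fshr and Mc2r were detected on none. Of the 12 probe sets of this list, 4 of them for Igf1, 0 passed in either run. Only 1 of the 12 was in the smaller run, so nearly all could not pass.

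No pituitary probe set passed the test by genotype or sex. For KO against WT, 0 of 45101 probe sets were called after adjustment (0%) and 0 of the 13; 38 had an unadjusted p under 0.05 (0.0843%), and 0 of the 13. The run over 3873 called 0 (0%), and 0 of 5. For female against male, 0 were called (0%), with 129 at an unadjusted p under 0.05 (0.286%) and again 0 of the 13; the smaller run called 0 (0%). The KO arrays had 0 to 9 of the 13 probe sets detected (mean 2.63 ± 3.16, SD, n = 8) and the WT arrays 0 to 6 (mean 2.75 ± 2.38, SD, n = 8). The female arrays had 0 to 5 (mean 2.25 ± 2.12, SD, n = 8) and the male arrays 0 to 9 (mean 3.13 ± 3.27, SD, n = 8). Within 1 brain part, sex or genotype the number of arrays limits the precision, and with 2 arrays a group the smallest exact p is 0.333.

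The genes with calls most like each of these were named by the number of arrays that match, with no test. For the Gh _x_at probe sets Shox2 matched on 15 of 16 arrays and 6 more probe sets on 14. For the Gh _a_at probe set Dnajc1, Frat1, Igf1 (1452014_a_at), Tcp11x2 and Tfap2d matched on 15. For Tshb, Bmp5, Elmo3, Pard6g, Stk17b and Trim67 matched on all 16 by the probe sets the rule named, each detected on 8 arrays. For Tbx19, 4930503L19Rik, Asap2 and Cep63 matched on 15, and 12 more probe sets on 14.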

How the data were processed

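RNA of 16 mouse samples (8 groups of 2 independent specimens) was measured on Affymetrix arrays. The authors name the MAS5 algorithm in the methods and RMA normalization in the results, and the methods name a human array, whereas the probe sets belong to a mouse array. The deposited table holds 5 distinct values and no intensities; the authors state no unit, and the values were used here as other, namely levels of a detection call, so the ANOVA of the methods could not be fitted. A value above 5e-38 was read as detected. Of 45101 probe sets, 34958 have 1 gene symbol in the platform annotation, 932 several and 9211 are unnamed here.

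Brain part, genotype and sex were each tested over 8 against 8 arrays with a two-sided Fisher's exact test per probe set, adjusted by Benjamini-Hochberg over all probe sets and called at an adjusted p under 0.05. No fewer than 141 complete switches are needed for this run to call any, so a run over the 3873 probe sets detected on 5 to 11 arrays was an alternative. On simulated calls of 45101 probe sets, brain part, with 100 complete switches, the run over all recovered 0 and the smaller run 100; of 100 partial ones (detection 0.85 against 0.15), 0 and 18. As the 100 planted are fewer than the 141 needed, the 0 of the run over all was largely fixed in advance and measures no power.

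The members, lists, tests and alternatives were chosen with earlier results of these data known. Genes named were all members, up to 4 per list with the largest difference in arrays detected between brain parts, and up to 5 probe sets most like each member detected on 4 to 12 arrays; others are marked as chosen after their values were seen. Other alternatives were marginal calls as detected, levels -1 and -2 as detected or left out, permutation within strata, a replicate block, each array left out, subsets of arrays and the gene as the unit. Depth is known only as probe sets detected per array. Scripts ran in Python 3.11.15 (scipy 1.17.1, numpy 2.4.6, pandas 2.3.3), with matplotlib 3.10.9 for figures.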

Additional observations from a re-analysis of the deposited data

Results flagged for a closer look

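Single arrays far from the others of their group were looked for in 50 groups of arrays and found in 11; the limit used gives about 1 in 20 by chance for independent continuous values, a rate that does not carry over to these small, often tied counts in overlapping groups. KO male rest-of-brain replicate 1 was highest in 4: with 9 pituitary probe sets, against 0 to 1 on the other KO rest-of-brain arrays; with 6 pituitary genes, against 0 to 1 on those; with 6, against 0 to 1 on the other male rest-of-brain arrays; and with 18 probe sets of other pituitary genes, against 11 to 14 on the other rest-of-brain arrays. KO female cerebellum replicate 2 was lowest in pituitary genes, with 1 (Tshb), against 2 on each of the other female cerebellum arrays. WT female cerebellum replicate 2 was lowest in cerebellum markers, with 26, against 36 to 39 over all other cerebellum arrays and 36 to 38 over the other female ones. KO female rest-of-brain replicate 1 was highest in them, with 32, against 20 to 21 on the other female rest-of-brain arrays. In forebrain markers, KO female cerebellum replicate 2 had 7, against 5 on the other KO cerebellum arrays; WT female rest-of-brain replicate 2 had 18, against 19 on the other WT ones; and WT female rest-of-brain replicate 1 had 19, against 18 on the other female ones.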

How the results depend on the processing

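For brain part, the run over all probe sets called 0, and this count moved to 662 with the smaller run, 61 of 18194 with the gene as the unit, 642 without the 2 arrays that stand apart in the smaller run, and 144 to 257 with 1 array left out, the highest without WT female cerebellum replicate 2. The 0 was set by the limit of 141 complete switches, which the data narrowly miss, and does not show that the brain parts are alike. The member count moved from 0 to 1, Tshb, in the smaller run without the 2 arrays that stand apart, and otherwise stayed at 0. The adjusted p of Tshb ranged from 0.0232 to 1 over the alternatives. With a replicate block, same-numbered arrays being paired, 0 probe sets were called for brain part, genotype and sex, and Tshb had an exact p of 0.0313 before adjustment; the block changed no call. Over the 11269 probe sets detected on part of the arrays, the difference between replicates 1 and 2 correlated across brain parts with r of -0.0014 (KO female), 0.015 (KO male), -0.018 (WT female) and 0.043 (WT male), so the numbers were not taken to pair the arrays. For genotype and sex every alternative called 0 probe sets, members included. With marginal calls as detected, Lhb differed by -12.5 percentage points for cerebellum minus rest of brain, 12.5 for KO minus WT and -12.5 for female minus male; with levels -1 and -2 as detected or left out, Fshb differed by 50 percentage points for KO minus WT. Of 1040 recomputed differences of single pituitary probe sets 4 had the other sign, all in subsets of 4 against 4 arrays and none called: Tbx19 (1422085_at) for cerebellum minus rest of brain in WT arrays alone and for KO minus WT in rest-of-brain arrays alone (25 percentage points each, against -12.5 over all arrays), Prl for KO minus WT in male arrays alone (25, against -12.5), and Prl for female minus male in KO arrays alone (-25, against 12.5). A call per array gives no amount, so differences among detected transcripts were not measured.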
